A study of Mus musculus with 6 samples.

Results

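Transcripts of 40 cell cycle and mitosis genes were examined in adult mouse aortic valves, in control mice and in mice with a constitutively active type I BMP receptor. The genes were collected around Racgap1, which was singled out because its level was higher in every mutant library than in every control library, and the question was whether other genes of proliferating cells followed it. The other 39 were listed by their known roles, without a threshold on their measured values, but with earlier results of these data in view. All 40 were among the 23107 genes of the deposited count matrix, and all 40 were among the 15354 genes that reached 10 counts in 3 or more libraries and were tested. Since Racgap1 was picked on the contrast between genotypes, its difference is given as a description, and counts of genes that passed a test are given for the other 39. Of the other 39 genes, 0 passed the test between genotypes (edgeR, adjusted p under 0.05), as did 0% of all genes tested. The mutant libraries differed among themselves instead: mutant replicates 1 and 2 were high in most genes of mitosis, whereas mutant replicate 3 was low.

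Cells that divide copy their DNA in S phase and separate the copies in mitosis, and the genes for these steps are expressed in waves. E2F factors drive genes of DNA replication at the entry into S phase. Later, B-Myb and FoxM1 bind with the MuvB complex at promoters that hold a cell cycle homology region, and drive genes of the spindle, the kinetochore and cytokinesis, while the DREAM complex represses the same promoters in resting cells. Racgap1 codes for the GTPase-activating subunit of centralspindlin, which bundles microtubules between the separating chromosomes and recruits Ect2, an exchange factor needed for the cleavage furrow. Most cells of an adult valve are resting fibroblast-like interstitial cells and endothelium, so transcripts of dividing cells are a small share of the RNA.

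The mutants carried 2 alleles, a caAcvr1 transgene that makes a constitutively active Acvr1 receptor after Cre recombination, and Nfatc1Cre, an ires-Cre cassette inserted in the Nfatc1 locus. This driver recombines in the endocardium and cells derived from it and in the junction of leaflet and wall, and not in the muscle of the heart, so that not all cells of a dissected valve carried the active receptor. The controls are called wild type in the labels. The methods of the study describe controls as lacking either or both alleles and do not say which of these genotypes were sequenced. All mice were 4 months old and of an outbred strain, and each genotype gave 3 libraries of aortic valve RNA. The sex of the mice, pooling of valves and sequencing batches were not given in the sources used here. The methods call the samples of every assay independent in general terms, without saying for these libraries whether each came from a separate mouse, so that p-values measure the spread between these libraries.

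Library totals ran from 46180667 to 55728852 counts in controls and from 32218345 to 53129462 in mutants, of which mutant replicate 3 had the lowest. Levels are given as CPM (counts scaled to the same total in every library, after TMM normalization), and 3 counts, the limit that a count of 0 allows, corresponded to 0.0560 to 0.0942 CPM. This limit covers counting error only. Markers of valve interstitial cells summed to 16331 to 17402 CPM in controls and 14378 to 18479 CPM in mutants, and markers of endothelium to 1511 to 2428 and 1762 to 2068 CPM. Cardiac muscle markers were also present, at 11252 to 35709 CPM in controls and 18216 to 37207 CPM in mutants, so that the dissected tissue held more than leaflet.

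The promoters of some members are shown because the letters that mark late and early cell cycle genes differ between them. Members of DNA replication and the other members also differed in their spread between libraries. Whether the spread goes with the promoter letters was not tested. Each line holds 140 bases of the mouse reference GRCm38.p6 as given by RefSeq, read 5′ to 3′ along the gene, with 120 bases before the annotated start and 20 from it. Capitals mark the cell cycle homology letters TTTGAA (or TTCGAA), the CCAAT box and, in Mcm6, E2F letters (TTTGGCGC and TTTCGCGC; TTTCCCGC and TTTGCCGC were also searched), each on either strand, so that ATTGG is a CCAAT box and TTCAAA a cell cycle homology match on the other strand. In Mcm6, 2 of the E2F matches overlap, of which TTTCGCGC is on the other strand.
Racgap1 (chr15:99651637-99651776, minus strand): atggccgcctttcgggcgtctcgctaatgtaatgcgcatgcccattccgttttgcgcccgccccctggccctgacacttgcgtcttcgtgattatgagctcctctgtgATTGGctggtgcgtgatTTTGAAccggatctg
Kif23 (chr9:61946780-61946919, minus strand): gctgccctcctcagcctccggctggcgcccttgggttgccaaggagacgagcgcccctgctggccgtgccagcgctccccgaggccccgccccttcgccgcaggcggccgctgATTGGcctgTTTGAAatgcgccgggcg
Kif11 (chr19:37376262-37376401, plus strand): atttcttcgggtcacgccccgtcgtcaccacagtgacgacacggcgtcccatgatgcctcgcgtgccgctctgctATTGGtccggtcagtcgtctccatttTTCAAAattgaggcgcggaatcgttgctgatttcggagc
Ccnb2 (chr9:70421535-70421674, minus strand): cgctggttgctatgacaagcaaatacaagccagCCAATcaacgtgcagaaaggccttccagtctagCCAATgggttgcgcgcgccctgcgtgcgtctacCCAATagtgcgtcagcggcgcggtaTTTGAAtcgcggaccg
Cdk1 (chr10:69352893-69353032, minus strand): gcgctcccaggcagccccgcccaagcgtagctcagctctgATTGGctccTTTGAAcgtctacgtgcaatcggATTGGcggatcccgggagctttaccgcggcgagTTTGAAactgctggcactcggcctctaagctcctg
Pcna (chr2:132253161-132253300, minus strand): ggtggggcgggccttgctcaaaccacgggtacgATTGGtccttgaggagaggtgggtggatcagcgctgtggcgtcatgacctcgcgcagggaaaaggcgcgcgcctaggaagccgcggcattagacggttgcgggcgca
Mcm6 (chr1:128359686-128359825, minus strand): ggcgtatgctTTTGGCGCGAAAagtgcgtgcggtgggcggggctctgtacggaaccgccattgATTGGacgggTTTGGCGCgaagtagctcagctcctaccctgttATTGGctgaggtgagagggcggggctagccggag

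In Racgap1, the cell cycle homology letters lie at positions 6 to 11 of the transcript and the CCAAT box at -12 to -8 on the other strand, where position 1 is the annotated start. Kif23, the kinesin partner of Racgap1 in centralspindlin, has the same letters in the same order at 3 to 8 and at -7 to -3. These positions of Kif23 hold for the RefSeq start only. GENCODE starts Kif23 further downstream, at 61946774, so that both matches lie before that start. A window of 300 bases (250 before and 50 from the start) was available for 33 of the 40 members, in 35 windows. Of these, 23 (65.7%) held the cell cycle homology letters, against 19.2% of 32851 windows of all genes in the RefSeq table. CCAAT was in 28 (80.0%), against 37.4% of all windows, and both were in 60.0%, against 7.52%. Outside the genes of DNA replication, 22 of 28 windows (78.6%) held the cell cycle homology letters, whereas of the windows of the replication genes 1 of 7 (14.3%) did. E2F letters were in 3 of those 7 windows (42.9%) and in 1 of the other 28 (3.57%), against 2.26% of all windows. The first 30 transcribed bases of 22 of the 35 windows lay in a GENCODE transcript of the same gene, so that other starts are annotated for the rest. A match is a description of the letters and does not show that a factor binds.

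**Figure D1:**
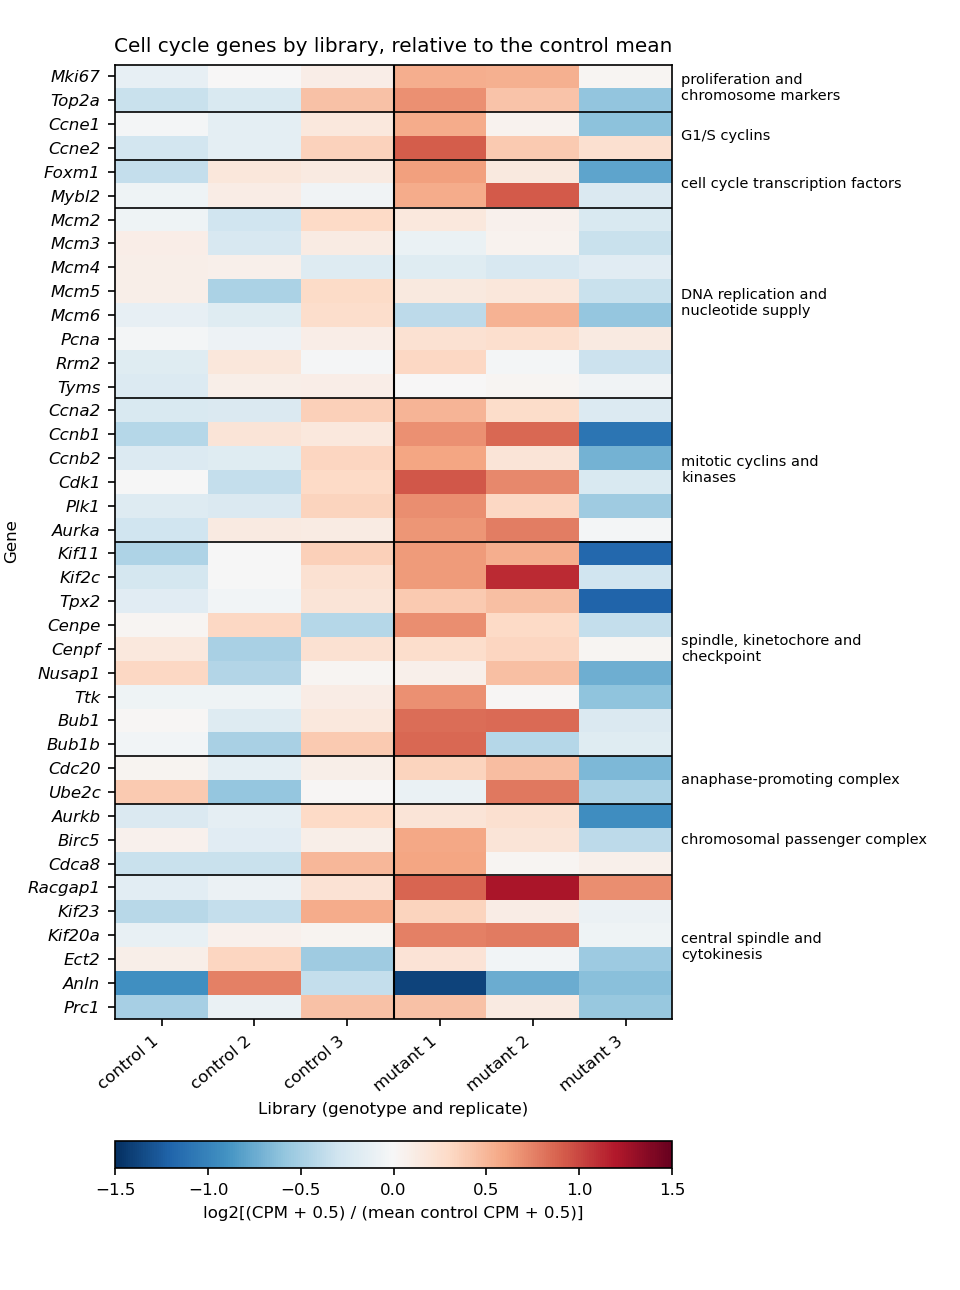
Level of 40 cell cycle genes (rows, grouped by role) in the 3 control and 3 mutant libraries (columns), as log2 of CPM + 0.5 over the mean control CPM + 0.5; red is above and blue below the control mean. Racgap1 is red in all 3 mutants, most genes of mitosis are red in mutants 1 and 2 and blue in mutant 3, and the genes of DNA replication are paler.

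Racgap1 measured 9.03, 9.47 and 11.8 CPM in the controls and 19.0, 24.2 and 16.6 CPM in the mutants, where values are listed by replicate number here and throughout. Every mutant lay above every control, which is the pattern for which it was picked. The mean was 10.1 ± 1.5 CPM in controls and 19.9 ± 3.88 CPM in mutants (SD, n = 3). In edgeR this was a difference of 0.98 on the log2 scale, with a standard error of 0.19. Leaving out each library in turn gave 0.82 to 1.11. The gene lies on chr15 from 99620496 to 99651656 on the minus strand of GRCm38, and no other annotated gene overlaps its exons. In bulk tissue, more cells that express a gene and more RNA per cell cannot be told apart.

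Kif23, which codes for the motor subunit of centralspindlin, did not follow this pattern. It had 3.83, 3.99 and 7.94 CPM in the controls and 6.76, 5.69 and 4.90 CPM in the mutants. Control replicate 3 was the highest of the 6 libraries and the groups overlapped. The log2 fold change was 0.14 (standard error 0.33), with a mean of 5.25 ± 2.33 CPM in controls and 5.78 ± 0.933 CPM in mutants (SD, n = 3). Per kilobase of exon, the ratio of Racgap1 to Kif23 was 2.64, 2.65 and 1.66 in the controls and 3.13, 4.75 and 3.79 in the mutants. The level of Racgap1 relative to its partner was thus higher in each mutant than in each control, which follows in part from the choice of Racgap1 and is not tested.

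Ect2, the exchange factor that centralspindlin recruits, had 4.12, 4.92 and 2.5 CPM in the controls and 4.52, 3.72 and 2.48 CPM in the mutants. The groups overlapped, and the log2 fold change was -0.11 (standard error 0.35). Prc1, which cross-links the antiparallel microtubules of the central spindle, had 6.20, 8.33 and 12.3 CPM in the controls and 12.3, 9.89 and 5.87 CPM in the mutants. Here mutant replicate 3 was the lowest library and the log2 fold change was 0.07 (standard error 0.35). Kif20a, a kinesin that carries passenger and kinase proteins to the midzone, had 4.20, 4.83 and 4.76 CPM in the controls and 8.09, 8.27 and 4.36 CPM in the mutants. Mutants 1 and 2 were far above the controls while mutant 3 lay among them, and the log2 fold change was 0.59 (standard error 0.28). Reads of Prc1 and Kif20a can include those of a gene on the opposite strand (Rccd1 and Cdc23), as use of strand in the counting was not stated. The same holds for Ccna2 (Exosc9), Nusap1 (Oip5) and Cdca8 (9930104L06Rik).

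Anln codes for anillin, the scaffold that links actin, myosin and septins in the contractile ring. It had 21.0, 68.0 and 31.2 CPM in the controls and 15.0, 23.7 and 25.7 CPM in the mutants, the only member of the central spindle and cytokinesis group whose mean was well below that of controls. Control replicate 2 stood apart, and control replicate 1 lay below mutants 2 and 3. The log2 fold change of -0.90 (standard error 0.43) was -0.28 when control replicate 2 was left out and -1.21 when control replicate 1 was. Control replicate 2 was also the library with the most smooth muscle marker RNA (13682 CPM, against 6775 to 7639 in the other controls and 3788 to 6906 in mutants), whose part in the level of Anln was not tested.

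The chromosomal passenger complex corrects the attachment of kinetochores and later moves to the central spindle. Aurkb, its kinase, had 3.06, 3.26 and 4.59 CPM in the controls and 4.23, 4.40 and 1.66 CPM in the mutants (log2 fold change -0.08, standard error 0.41). Birc5, which codes for survivin, had 4.07, 3.40 and 4.17 CPM in the controls and 6.02, 4.50 and 2.83 CPM in the mutants (0.20, standard error 0.31). In both genes mutant replicate 3 was the lowest of the 6 libraries, and in Birc5 the other mutants were above every control. Cdca8, which codes for borealin, had 2.44, 2.43 and 4.72 CPM in the controls and 5.06, 3.26 and 3.39 CPM in the mutants (0.29, standard error 0.36), and the groups overlapped because control replicate 3 was high.

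Mki67, the gene of the proliferation marker Ki-67, had 4.07, 4.49 and 4.83 CPM in the controls and 6.76, 6.68 and 4.58 CPM in the mutants. Mutants 1 and 2 were above every control and mutant 3 was within the control range. The mean was 4.46 ± 0.380 CPM in controls and 6.01 ± 1.23 CPM in mutants (SD, n = 3), with a log2 fold change of 0.43 (standard error 0.23). Top2a, the topoisomerase that untangles chromosomes before they separate, had 6.64, 7.22 and 11.7 CPM in the controls and 14.0, 11.6 and 5.46 CPM in the mutants. Its highest and its lowest library were both mutants (log2 fold change 0.29, standard error 0.38).

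**Figure D2:**
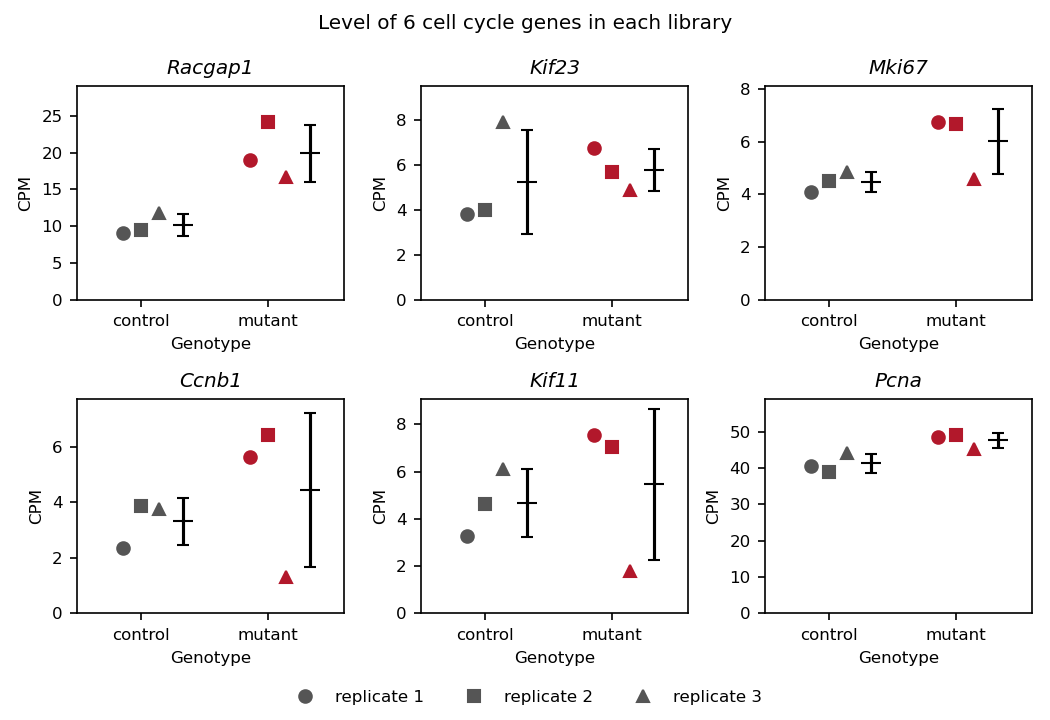
CPM (linear axis from 0) of Racgap1, Kif23, Mki67, Ccnb1, Kif11 and Pcna in each library, with points by replicate (circle 1, square 2, triangle 3) and a bar for the mean and SD of 3 libraries. Racgap1 and Pcna have all mutants above all controls, and in Mki67, Ccnb1 and Kif11 mutant replicate 3 lies apart from the other 2 mutants.

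Of the 6 cyclins and kinases that bring cells into mitosis, 3 had mutants 1 and 2 above every control. Ccna2, the cyclin of S phase and of the entry into mitosis, was the most abundant of the 6 in CPM, with 8.23, 8.29 and 12.6 CPM in the controls and 14.1, 11.9 and 8.38 CPM in the mutants. Its groups overlapped, and it differed by 0.24 on the log2 scale (standard error 0.26). The other 5 had log2 fold changes from 0.14 (Ccnb2) to 0.62 (Cdk1). Cdk1, the kinase that starts mitosis, had 3.88, 2.93 and 4.91 CPM in the controls and 7.92, 6.78 and 3.27 CPM in the mutants (standard error of the fold change 0.37). Ccnb1, its cyclin B partner, had 2.33, 3.86 and 3.74 CPM in the controls and 5.62, 6.43 and 1.29 CPM in the mutants (log2 fold change 0.43, standard error 0.56). Aurka, the kinase of the spindle poles, had 1.6, 2.33 and 2.33 CPM in the controls and 3.59, 3.90 and 2.04 CPM in the mutants (0.61, standard error 0.34). In each of these 3 genes, mutants 1 and 2 exceeded every control and mutant 3 did not, whereas in Ccna2, Ccnb2 and Plk1 control 3 was above mutant 2. The summed level of the 6 genes was 21.3, 22.7 and 31.7 CPM in the controls and 41.4, 36.5 and 18.6 CPM in the mutants, so that mutant replicates 1 and 2 were above and mutant replicate 3 was below all controls.

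The 9 genes of the spindle, kinetochore and spindle checkpoint all had log2 fold changes above 0, from 0.01 (Nusap1) to 0.76 (Bub1), and the groups overlapped in all 9. Tpx2, which activates Aurora A on spindle microtubules, had 5.0, 5.52 and 6.59 CPM in the controls and 7.65, 7.97 and 2.2 CPM in the mutants (0.06, standard error 0.46). Kif11, the kinesin that pushes the spindle poles apart, had 3.27, 4.65 and 6.13 CPM in the controls and 7.55, 7.06 and 1.79 CPM in the mutants (0.23, standard error 0.53). Bub1, a kinase of the spindle checkpoint, had 1.19, 0.969 and 1.37 CPM in the controls and 2.51, 2.53 and 0.942 CPM in the mutants (0.76, standard error 0.45). Mutants 1 and 2 were above, and mutant 3 was below, every control in these 3 genes. Kif2c, the microtubule-depolymerizing kinesin of the centromere, was alike, with 1.23, 1.58 and 1.94 CPM in the controls and 2.74, 4.02 and 1.19 CPM in the mutants (0.75, standard error 0.47). Bub1b, another checkpoint gene, was not: it had 2.91, 2.02 and 4.13 CPM in the controls and 5.89, 2.13 and 2.61 CPM in the mutants, so that mutant 1 alone was high. The summed level of the 9 genes was 27.5, 24.2 and 32.5 CPM in the controls and 41.4, 39.5 and 17.4 CPM in the mutants.

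The anaphase-promoting complex marks cyclin B and securin for destruction so that chromosomes can separate. Ube2c, its ubiquitin-conjugating enzyme, had 12.7, 6.25 and 9.72 CPM in the controls and 8.88, 16.9 and 6.75 CPM in the mutants, with mutant 2 high and mutants 1 and 3 within the control range (log2 fold change 0.18, standard error 0.40). Cdc20, its activator in mitosis, had 6.29, 5.46 and 6.50 CPM in the controls and 7.80, 8.58 and 3.64 CPM in the mutants (0.14, standard error 0.33). Only in Cdc20 of the pair did mutants 1 and 2 lie above, and mutant 3 below, all controls. Exons of Ube2c overlap those of Tnnc2, a troponin gene of the opposite strand, and exons of Cdc20 those of Elovl1.

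The transcription factors of late cell cycle genes differed from each other in mutant 2. Foxm1 had 4.35, 6.51 and 6.33 CPM in the controls and 9.02, 6.4 and 3.11 CPM in the mutants (log2 fold change 0.11, standard error 0.39). Mybl2, the gene of B-Myb, had 1.19, 1.42 and 1.22 CPM in the controls and 2.12, 2.86 and 1.04 CPM in the mutants (0.65, standard error 0.42). Mutant 3 was the lowest library in both. Ccne2, a cyclin of the entry into S phase, had 1.83, 2.04 and 3.09 CPM in the controls and 4.77, 3.19 and 2.83 CPM in the mutants (0.64, standard error 0.34), and here mutant 3 lay within the control range. Its relative Ccne1 had 1.10, 0.969 and 1.33 CPM in the controls and 1.89, 1.19 and 0.565 CPM in the mutants (0.11, standard error 0.49). Exons of Ccne2 overlap those of Ints8 on the opposite strand.

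The 8 genes of DNA replication and nucleotide supply varied least. Pcna, the sliding clamp of the replication polymerases, had 40.6, 39.1 and 44.3 CPM in the controls and 48.6, 49.2 and 45.4 CPM in the mutants. Besides Racgap1, it was the only member in which every mutant lay above every control (a pattern of 4.04% of all genes), though control 3 and mutant 3 were close. The mean was 41.3 ± 2.66 CPM in controls and 47.7 ± 2.04 CPM in mutants (SD, n = 3), which gave a log2 fold change of 0.21 with a standard error of 0.10 (edgeR, adjusted p = 0.999 over all genes). The annotation names 2 Pcna pseudogenes, with which reads could be shared. It also names pseudogenes of Tyms, Ccnb1 and Ccnb2. The genes of the Mcm helicase, which unwinds DNA at the replication fork, had log2 fold changes from -0.20 (Mcm4) to 0.01 (Mcm5). Mcm4 had 37.6, 37.3 and 30.9 CPM in the controls and 31.1, 29.8 and 31.3 CPM in the mutants. Mcm6 was the most variable of them, with 41.4, 39.7 and 53.9 CPM in the controls and 34.3, 64.7 and 30.04 CPM in the mutants. Rrm2, a subunit of ribonucleotide reductase, was at 0.01 on the log2 scale (standard error 0.22), and Tyms, the thymidylate synthase, at -0.01 (standard error 0.14). The summed level of the 8 genes was 200, 188 and 222 CPM in the controls and 200, 229 and 175 CPM in the mutants, and the groups overlapped.

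**Figure D3:**
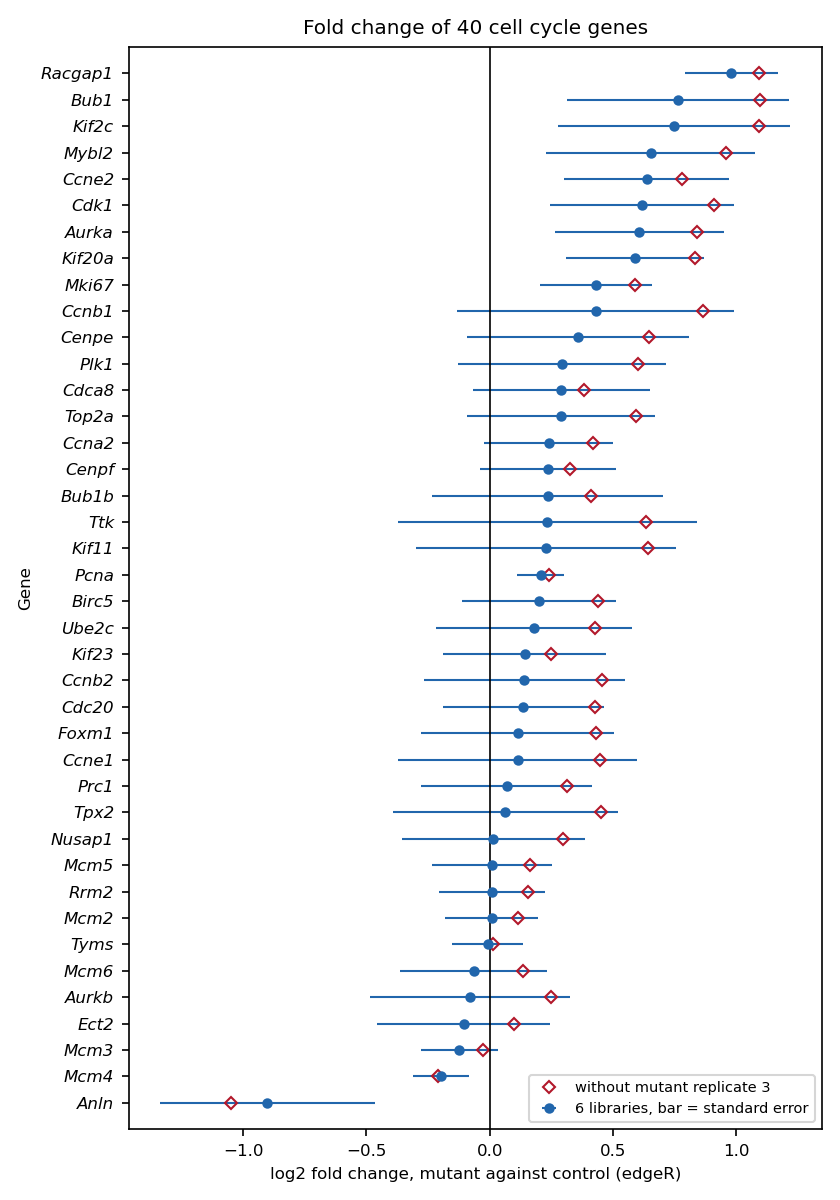
Log2 fold change, mutant against control, of the 40 genes in edgeR with 6 libraries (blue points, bars are standard errors) and with mutant replicate 3 left out (open diamonds). Bars cross 0 in 28 genes, and most diamonds lie to the right of their points.

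Over the set, 0 of the 39 genes other than Racgap1 passed an adjusted p of 0.05 in edgeR, as did 0% of the 15354 genes tested, and their smallest adjusted p was 0.999. Without adjustment, 0 of the 39 had a p under 0.05, where 1.59% of all genes did with a higher and 1.86% with a lower level in mutants. In 3 other settings Anln was the only gene of the 39 with an unadjusted p under 0.05 and a lower level in mutants, in DESeq2 (against 2.29% of all genes), with the replicate number as a block (2.94%) and without control replicate 1 (2.17%), and without mutant replicate 2 it was Mcm6 (2.02%). The smallest unadjusted p among the 39 was 0.0667 (Pcna), from the edgeR test. In DESeq2, 26 genes in all had an adjusted p under 0.05 (0.169%), and 0 of the 39 were among them. Of the 39, 32 had a log2 fold change above 0, against 52.2% of all genes, and their median was 0.20, against 0.01 for all genes. With Racgap1 included, 33 of 40 were above 0, but 20 of 40 without mutant replicate 1, 37 of 40 without mutant replicate 3 and 28 of 40 with the replicate number as a block. The size of the fold change was smaller than its standard error in 28 of the 39. Every mutant was above every control in 1 of the 39 (2.56%), against 4.04% of all genes, and below in 0, against 4.83%. With 3 libraries in each group, an exact two-sided permutation test of a single gene cannot give a p under 0.1. The data leave room for differences in either direction that are of the size of the standard errors given.

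The spread among mutants set this set of genes apart from genes in general, a pattern described after the values were seen. The median over members of the SD of log2(CPM + 0.5) was 0.30 among controls and 0.52 among mutants, against 0.20 and 0.20 over all genes tested. For the 32 members outside DNA replication it was 0.32 among controls and 0.59 among mutants, and for the 8 of DNA replication 0.19 and 0.20. The SD was larger among mutants in 29 of the 40, against 49.6% of all genes. Counts of the members went down to 8 in a library, and the part of counting noise in the spread was not tested.

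Mutant replicate 3 was the lowest of the 6 libraries in 21 of the 39 members other than Racgap1 (53.8%), against 17.0% of all genes tested. Mutant replicate 1 or 2 was the highest in 29 (74.4%), against 35.5%. Mutants 1 and 2 together lay above every control in 15 (38.5%), against 8.11% of all genes, whereas mutant 3 lay above every control in 1, Pcna (2.56%, against 24.7%). In 8 of the 39 (20.5%, against 1.77%), mutants 1 and 2 were above and mutant 3 was below every control. These were Mybl2, Ccnb1, Kif11, Kif2c, Tpx2, Bub1, Cdc20 and Birc5. Mutant 3 was also the library with the fewest counts, and the part of depth in this was not tested.

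The comparison of genotypes therefore depended on that library, and it also depended on mutant replicate 1. Without mutant replicate 3, a choice made after its values were seen, 15 of the 39 members other than Racgap1 had both mutants above every control (38.5%, against 8.11% of all genes). The median log2 fold change of the 40 members was then 0.43, and 8 of the 39 had an unadjusted p under 0.05 with a higher level in mutants (20.5%, against 1.75%). These were Mki67, Mybl2, Ccnb1, Cdk1, Aurka, Kif2c, Bub1 and Kif20a. The adjusted p was passed by 0 genes in edgeR without it. Without mutant replicate 1, by contrast, the median of the 40 was -0.0013. Without control replicate 3, in which several members were high, 6 of the 39 had every mutant above the remaining controls (15.4%, against 7.86%) and 1 had every mutant below (against 8.84%). The unadjusted p was then under 0.05 for Ccne2, higher in mutants (1 of 39, against 1.33% of all genes), and for Mcm4, lower in mutants (1 of 39, against 1.75%). Without control replicate 1, 1 of the 39 had every mutant above (against 8.82%) and 2 every mutant below (against 9.63%).

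The level of Racgap1 was also set against that of the other genes of mitosis in each library. The other 30 members outside DNA replication, leaving out Anln because of its high level in control 2, summed to 115, 112 and 150 CPM in the controls and to 185, 173 and 89.5 CPM in the mutants. Racgap1 amounted to 7.86%, 8.43% and 7.89% of that sum in the controls and to 10.2%, 14.0% and 18.6% in the mutants. With Anln included, it amounted to 6.64%, 5.25% and 6.53% in the controls and to 9.48%, 12.3% and 14.4% in the mutants. By either sum the share was higher in each mutant than in each control. Relative to Mki67, Racgap1 had a CPM ratio of 2.22, 2.11 and 2.45 in the controls and 2.81, 3.63 and 3.63 in the mutants. As Racgap1 was chosen for its level in mutants, these ratios are not tested.

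**Figure D4:**
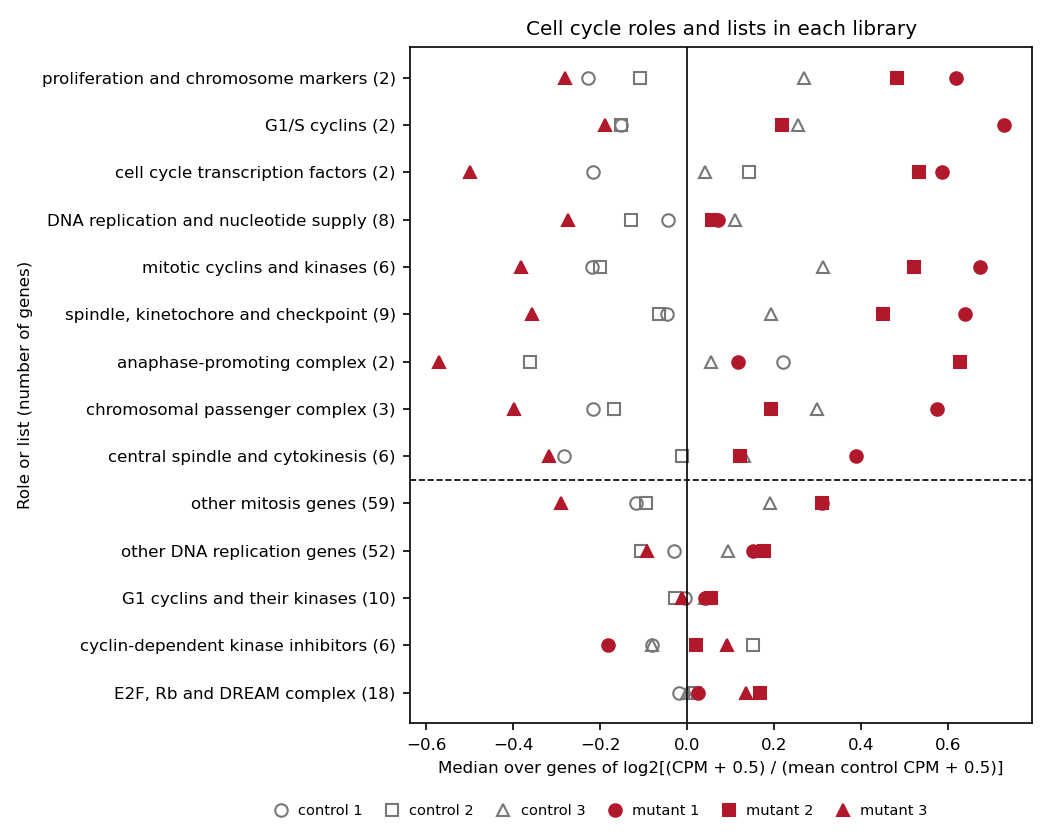
Median over the genes of each role (9 roles of the 40 members, above the dashed line) or other cell cycle list (below it) of log2 of CPM + 0.5 over the mean control CPM + 0.5, for each library (open symbols controls, red symbols mutants). Mutants 1 and 2 lie to the right and mutant 3 to the left in the roles of mitosis, with smaller distances among replication genes and G1 cyclins.

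Cell cycle genes outside the set were listed from general knowledge, and 0 genes of the lists given here passed the adjusted p in edgeR or DESeq2. Without adjustment, 1 of 52 replication genes (Ezh2) and 2 of 18 E2F, Rb and DREAM genes (E2f8 and Rbl1) had a p under 0.05 in edgeR. All were higher in mutants, as were 1.59% of all genes at that p. Of the other lists, 0 of 59 mitosis genes, 0 of 10 G1 genes and 0 of 6 inhibitors had such a p. Of 60 other mitosis genes, 59 were tested, 42 with a log2 fold change above 0, as had 52.2% of all genes, and 17 with one below (median 0.19). Mutant 3 was the lowest library in 29 of the 59 (49.2%, against 17.0% of all genes) and mutant 1 or 2 the highest in 42 (71.2%, against 35.5%). Every mutant was above every control in 1 of the 59, against 4.04% of all genes. This was Spag5, a spindle gene with 0.429, 0.930 and 1.28 CPM in the controls and 2.22, 1.92 and 1.29 CPM in the mutants (log2 fold change 1.04, standard error 0.48). Its lowest mutant and highest control were nearly equal.

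Of 52 other genes of DNA replication and repair, 42 had a log2 fold change above 0 and 10 below (median 0.11). Ezh2, the histone H3 lysine methyltransferase of Polycomb, had 5.08, 5.08 and 6.15 CPM in the controls and 8.73, 7.77 and 7.66 CPM in the mutants (0.57, standard error 0.18), every mutant above every control, as in 4.04% of all genes. Mutant 3 was the lowest library in 16 of the 52 (30.8%, against 17.0% of all genes). Mutant 1 or 2 was the highest in 37 (71.2%, against 35.5%), the same share as among the other mitosis genes. Mutants 1 and 2 both lay above every control in 15 (28.8%, against 8.11%), again the share of the other mitosis genes. Among 18 genes of the E2F, Rb and DREAM group, 14 were above 0 and 4 below. Rbl1, the gene of the pocket protein p107, had 4.83, 6.55 and 5.39 CPM in the controls and 9.98, 7.19 and 8.92 CPM in the mutants (0.64, standard error 0.21), every mutant above every control. Every mutant was below every control in 2 of the 18, against 4.83% of all genes, which were the MuvB subunits Lin37 and Lin52 with log2 fold changes of -0.14 and -0.08.

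Of 10 G1 cyclins, their kinases and Myc genes, which act before the commitment to divide, 6 had a log2 fold change above and 4 below 0 (median 0.04). The values ran from -0.38 (Cdk6) to 0.28 (Mycn). Every mutant was above every control in 2 of the 10, against 4.04% of all genes. Cdk4, the partner of cyclin D, was so with a log2 fold change of 0.07, and so was Cdk2, the partner of cyclin E, with 22.2, 22.1 and 23.1 CPM in the controls and 23.6, 23.5 and 24.0 CPM in the mutants (0.08, standard error 0.10).

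Among the inhibitors of cyclin-dependent kinases, Cdkn1a, the gene of p21, had 112, 153 and 141 CPM in the controls and 122, 180 and 173 CPM in the mutants (log2 fold change 0.23). Cdkn1b had 8.70, 10.4 and 8.44 CPM in the controls and 8.42, 8.91 and 13.3 CPM in the mutants (0.15). Cdkn1c had 58.1, 101 and 48.4 CPM in the controls and 59.4, 62.2 and 75.8 CPM in the mutants (-0.07). Cdkn2b had 10.4, 12.2 and 10.7 CPM in the controls and 9.31, 12.6 and 11.6 CPM in the mutants (0.00). Cdkn2c had 20.7, 22.9 and 19.4 CPM in the controls and 18.0, 22.3 and 20.8 CPM in the mutants (-0.05), and Cdkn2d had 34.7, 32.8 and 34.9 CPM in the controls and 33.8, 31.0 and 34.4 CPM in the mutants (-0.04). The groups overlapped in all 6, and mutant 3 was the highest mutant in Cdkn1b, Cdkn1c and Cdkn2d and mutant 2 in the other 3. Cdkn2a, the gene of p16 and of ARF, was below the minimum for the test, with 0, 0.0791 and 0 CPM in the controls and 0.154, 0.278 and 0.0942 CPM in the mutants.

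Markers of other cell types also differed between the libraries. All 10 macrophage markers had a log2 fold change above 0, with a sum of 1461 to 1647 CPM in controls and 1929 to 2091 CPM in mutants, and 5 (Cd68, C1qa, C1qb, C1qc and Lyz2) were above every control in every mutant, as were 4.04% of all genes. None of the 10 was at 0 in any library. Mutant 3, the lowest mutant in most genes of mitosis, had a macrophage sum of 2073 CPM, against 1929 in mutant 1 and 2091 in mutant 2. The T cell markers summed to 11.3, 5.40 and 4.87 CPM in the controls and 10.3, 16.8 and 12.0 CPM in the mutants. Smooth muscle markers summed to 6775 to 13682 CPM in controls and 3788 to 6906 CPM in mutants. Of the 6, 5 had a log2 fold change below 0 and 1, Des, had one above (0.12). In 3 of the 6 (Myh11, Tagln and Smtn) every mutant was below every control, as in 4.83% of all genes. In bulk RNA the cells that carry the transcripts of Racgap1 or of the other members cannot be told apart, and the part of these cell types in the members' levels was not tested.

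Per kilobase of exon, the members spanned a wide range in controls. Pcna was the highest at 17.2 ± 1.11 CPM per kilobase, and Mcm4 (9.82 ± 1.06) and Mcm6 (9.64 ± 1.66) came next without differing from each other beyond their spread (SD, n = 3). Racgap1 was the 14th of 40 at 1.43 ± 0.212 CPM per kilobase, above Kif23 at 0.665 ± 0.294. Mki67 was at 0.443 ± 0.0378, and the lowest were Cenpe (0.180 ± 0.0590) and Ttk (0.131 ± 0.0169), a kinesin of the kinetochore and a checkpoint kinase. Genes of DNA replication held the top of this order.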

How the data were processed

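Aortic valve RNA of 4-month-old mice was sequenced in 3 control and 3 mutant libraries by the authors on an Illumina platform. The authors aligned the reads to mm10 (TopHat2 2.0.13 and Bowtie2 2.2.1 in the submitters' processing notes) and quantified genes with Cuffdiff 2.1.1. The values deposited by the authors are estimated counts, unscaled for library size, of which 1.66% to 1.87% per library were not whole and were rounded. Cuffdiff needs aligned reads and was not rerun.

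Counts were tested in R 4.3.3 with edgeR 4.0.16 (TMM, quasi-likelihood F test, two-sided, no covariates) over the 15354 genes that reached 10 counts in 3 or more libraries, with Benjamini-Hochberg adjustment and a threshold of 0.05. The biological coefficient of variation was 0.278. The script was tested on simulated counts. Alternatives were DESeq2 1.42.0 and its size factors, upper quartile scaling, limma 3.58.1 voom, no filter (18583 genes), the replicate number as a block, and each library left out in turn.

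The members and lists were chosen with earlier results of these data known. Values in every library were given, by rule, for Racgap1, its partners at the central spindle and contractile ring, Mki67, Top2a, the most abundant member of each role, members whose groups did not overlap or with an unadjusted p under 0.05, the gene with the smallest unadjusted p among those without overlap in each other list, and the inhibitors. Values of further members (Cdk1, Ccnb1, Aurka, Kif11, Bub1, Kif2c, Bub1b, Cdc20, Mybl2, Ccne1, Mcm4 and Mcm6) were added after they were seen.

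Exon lengths and overlaps came from GENCODE M21, promoter windows from RefSeq (GRCm38.p6). No replicate pair was alike within counting noise (chi-square per degree of freedom 83.8 to 376). Some genes of the other cell cycle lists are not reported here.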

Additional observations from a re-analysis of the deposited data

How the results depend on the processing

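Of the 39 members other than Racgap1, 0 were called with edgeR under both other scalings, without the filter, in limma-voom, with the replicate block and with any library left out. DESeq2 called 26 genes, of which 1 was a member, Racgap1, which was chosen on this contrast, so that its call is no support. Racgap1 kept a log2 fold change of 0.97 to 0.99 in these settings, 0.97 with the replicate block, and 0.82 to 1.11 with a library left out. The median of the members was 0.13 to 0.21, and -0.0013 to 0.43 with a library left out. Members whose groups did not overlap, in either direction and with Racgap1 counted, were 2 under both other scalings and without the filter. They were 2 to 16 with a library left out. The shares of all genes rose too. Every mutant was above every control in 4.04% with 6 libraries and in 7.86% to 9.88% with a library left out. Every mutant was below in 4.83% and in 8.16% to 10.4%. With a library left out, the direction reversed in some cases for Kif23 (-0.043 to 0.56), Ect2 (-0.34 to 0.11), Prc1 (-0.18 to 0.37), Aurkb (-0.30 to 0.25), Birc5 (-0.081 to 0.44), Foxm1 (-0.27 to 0.43), Tpx2 (-0.20 to 0.45) and Ube2c (-0.29 to 0.44), none of which was called. Tpx2 was also at -0.033 in limma-voom and -0.10 with the replicate block. Same-numbered libraries of the 2 genotypes deviated together with r = 0.40, 0.21 and 0.02, and control 2 correlated best with mutant 3 (0.24), so that the numbers were not taken to pair the libraries. The cause of these changes was not tested. With counts of 8 to 3436 per member and library and 3 libraries in each group, differences of the size of the standard errors given could not be detected.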
